A study of Mus musculus with 13 samples.

Results

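Of the 18939 genes in the count tables, 9 were followed through single mouse oocytes: the oocyte transcription factors Figla, Nobox, Sohlh1, Sohlh2 and Lhx8, the TATA-binding protein gene Tbp with its paralogs Tbpl1 and Tbpl2, and Taf4b. They were chosen by symbol, and all 9 were present in the count tables of both stages and in the FPKM table, which lists 49686 genes. The 13 libraries came from 13 oocytes: 3 SN and 3 NSN oocytes at the germinal vesicle (GV) stage, and 4 SN-MII and 3 NSN-MII oocytes, that is, oocytes at metaphase of meiosis II that had been classed as SN or NSN before they matured. SN stands for surrounded nucleolus and NSN for non-surrounded nucleolus, the chromatin states of transcriptionally silent and of still transcribing GV oocytes.

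All 4 groups came from juvenile C57BL/6 females primed with PMSG, and no other genotype is given. Every oocyte, MII oocytes included, had been injected with mRNA for the nucleolar protein fibrillarin fused to GFP (FBL-GFP), kept for 6 h in Cilostamide, an inhibitor that holds oocytes at the GV stage, and classed by its nucleolus pattern. No source says which oocytes shared a female, so the p-values measure the spread between these oocytes. cDNA was made from each lysed oocyte by SMART-seq2, which primes on the poly(A) tail. A fall in RNA and a shortened tail therefore cannot be told apart, nor can a rise and a lengthened one.

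FIGLA, SOHLH1 and SOHLH2 are basic helix-loop-helix (bHLH) proteins that bind the E-box, NOBOX is a homeobox protein and LHX8 a LIM-homeobox protein. Together they drive the growth of the oocyte out of the primordial follicle, and FIGLA switches on the zona pellucida genes. TBP seats RNA polymerases at promoters as a part of TFIID and of other complexes. In the growing oocyte TBPL2 takes over at polymerase II promoters together with TFIIA, TBPL1 is best known from spermatids, and TAF4B is the gonadal counterpart of the TFIID subunit TAF4. Transcription stops at the SN stage, and the RNA of an MII oocyte is what it stored earlier.

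The regions around the RefSeq starts of 4 of the genes are printed first, picked after their values were seen. Figla, Nobox and Lhx8 fell from GV to MII while Tbpl2 did not, and Tbp, which also fell, is not printed. Whether promoter motifs bear on these changes was not tested. The RefSeq promoters on GRCm38.p6 held 8 of the 9 genes. Each sequence runs 5′ to 3′ from 250 bases before to 50 bases after the gene's RefSeq start, and capitals mark E-boxes (CANNTG, a motif that reads the same on both strands). Figla lies at chr6:86016941-86017240 on the plus strand, Nobox at chr6:43309505-43309804 on the minus strand, Lhx8 at chr3:154330511-154330810 on the minus strand and Tbpl2 at chr2:24096546-24096845 on the minus strand.

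Figla: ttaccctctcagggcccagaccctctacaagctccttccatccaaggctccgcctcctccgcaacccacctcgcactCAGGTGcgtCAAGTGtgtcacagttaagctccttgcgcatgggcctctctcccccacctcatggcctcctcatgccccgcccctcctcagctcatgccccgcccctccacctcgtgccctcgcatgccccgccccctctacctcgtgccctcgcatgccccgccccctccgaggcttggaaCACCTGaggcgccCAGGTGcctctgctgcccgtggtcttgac
Nobox: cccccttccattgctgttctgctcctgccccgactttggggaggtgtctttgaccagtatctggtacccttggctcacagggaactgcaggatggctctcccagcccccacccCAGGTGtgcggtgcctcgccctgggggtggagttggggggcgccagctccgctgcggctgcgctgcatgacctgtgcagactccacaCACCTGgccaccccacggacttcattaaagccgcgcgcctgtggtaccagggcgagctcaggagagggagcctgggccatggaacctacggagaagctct
Lhx8: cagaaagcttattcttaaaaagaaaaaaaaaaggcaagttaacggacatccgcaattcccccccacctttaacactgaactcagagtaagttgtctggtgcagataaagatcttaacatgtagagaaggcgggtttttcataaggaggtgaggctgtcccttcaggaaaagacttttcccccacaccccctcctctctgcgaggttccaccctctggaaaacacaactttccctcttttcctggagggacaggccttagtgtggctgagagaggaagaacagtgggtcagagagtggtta
Tbpl2: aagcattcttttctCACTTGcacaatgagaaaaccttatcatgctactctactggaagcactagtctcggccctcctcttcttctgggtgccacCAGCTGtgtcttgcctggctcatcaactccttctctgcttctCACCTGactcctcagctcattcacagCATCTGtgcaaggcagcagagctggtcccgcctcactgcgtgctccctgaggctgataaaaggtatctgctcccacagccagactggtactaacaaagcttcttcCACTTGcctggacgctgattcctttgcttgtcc

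Figla held 4 E-boxes, Nobox 2, Lhx8 0 and Tbpl2 5, against a median of 1 over 32851 promoters, of which 72.3% held at least 1. Of the other promoters in the table, that of Sohlh1 also held 5, that of Tbp 3, and those of Sohlh2 and Tbpl1 held 1 each. None of the 8 held a NOBOX element (TAATTG or TAATTA, either strand), which 12.4% of promoters held, or a TATA box (TATAAA, either strand), which 13.6% held. No motif of these 3 was common to the promoters of Figla, Nobox and Lhx8.

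On the GENCODE annotation of mm10, the build of the files, Figla lies at 6:86016171-86020996, Nobox at 6:43303674-43309554, Lhx8 at 3:154306294-154330659 and Sohlh2 at 3:55182028-55209957. Sohlh1 lies at 2:25842995-25847248, Tbpl2 at 2:24071721-24096595, Tbp at 17:15499888-15528379, Tbpl1 at 10:22703879-22731938 and Taf4b at 18:14783245-14900359. All are protein-coding. Exons of Tbp overlap those of Pdcd2 on the other strand over 2582 bases, and exons of Tbpl1 overlap those of Slc2a12 over 407 bases. The kit does not mark strand, so reads from the overlaps could belong to either gene.

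Total counts lay between 7140416 and 8846287 per library. The labelled cell type held up: the summed FPKM (counts per length and library size) of 6 oocyte markers was 8504.51 to 13229.56 in every library. Single markers in that sum moved with the stage. From GV to MII, mean Zp3 fell from 2904 to 189 FPKM and Gdf9 rose from 3238 to 5214 FPKM. Ooep and Zar1 fell as well, Dppa3 rose and Ddx4 was not called. The sum of 12 cumulus and granulosa cell markers was 18.69 to 31.97 FPKM at GV and 35.42 to 59.09 at MII. It was mostly Cyp19a1, at up to 53.05 FPKM, while Foxl2 and Ptx3 were listed at 0 everywhere. This list also moved with the stage, and its part in the stage results was not tested.

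Per length, the order of the genes at GV was Nobox (392 ± 100.3 FPKM, SD, n = 6), Lhx8 (197 ± 12.3), Tbp (70.3 ± 14.6), Figla (55.2 ± 18.6), Tbpl2 (16.8 ± 7.66), Tbpl1 (8.26 ± 3.01), Sohlh2 (4.33 ± 1.77), Taf4b (0.95 ± 0.309) and Sohlh1 (0.183 ± 0.364). Tbp and Figla overlapped between libraries, as did Tbpl2 and Tbpl1, Tbpl1 and Sohlh2, and Taf4b and Sohlh1. At MII (n = 7) the order was Nobox (70.0 ± 49.0 FPKM), Lhx8 (62.3 ± 9.26), Tbp (42.8 ± 6.55), Tbpl2 (24.4 ± 3.72), Tbpl1 (22.6 ± 5.86), Sohlh2 (15.1 ± 9.70), Figla (2.53 ± 1.24), Taf4b (1.29 ± 0.697) and Sohlh1 (0.0143 ± 0.0378). There, the ranges of Tbp and Tbpl2 were apart, as were those of Sohlh2 and Figla and of Taf4b and Sohlh1, and the other neighbours overlapped. The first place of Nobox held for the mean only: its MII median was 48.8 FPKM, against 60.6 for Lhx8. In SN-MII oocytes the mean of Nobox (42.3) lay under those of Lhx8 (60.7) and Tbp (45.6). In NSN-MII oocytes it was 107, against 64.5 for Lhx8. Figla thus went from the fourth to the seventh place.

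**Figure D1:**
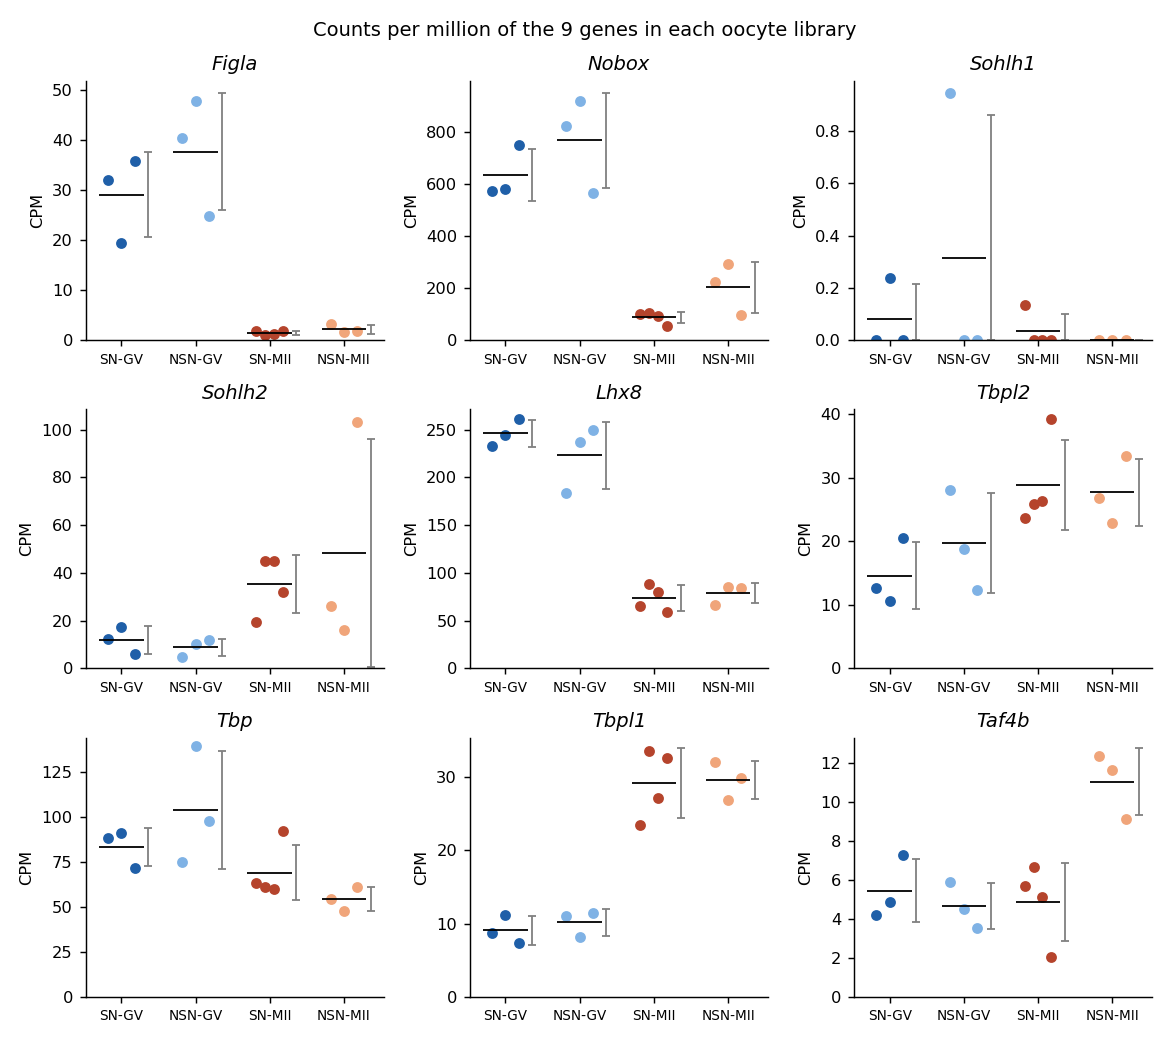
CPM (linear axes from 0) of the 9 genes in each of the 13 oocyte libraries, by group (SN-GV, NSN-GV, SN-MII, NSN-MII). Points are oocytes, black lines group means and grey bars the SD, drawn down to 0 at most. Figla, Nobox and Lhx8 sit lower in every MII oocyte than in any GV oocyte, Tbpl1 sits higher in every MII oocyte, and Sohlh1 stays under 1 CPM.

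The question asked first was how these regulators differ between the MII and the GV oocyte. Figla, Nobox, Lhx8 and Tbp fell, Sohlh2, Tbpl1 and Tbpl2 rose, Taf4b did not pass the test and Sohlh1 was too low to be tested. So 7 of the 8 tested genes were called at an adjusted p under 0.05 by edgeR's quasi-likelihood test, in a transcriptome where 68.6% of the 11375 genes tested were called, 36.9% as lower and 31.7% as higher at MII. A share of called genes as high as this makes 7 of 8 no result about the regulators. The sizes and directions are what the data add. Ranked by log2 fold change over all genes tested, steepest fall first, Figla stood at percentile 4.42, Nobox at 17.1 and Lhx8 at 25.4. Tbp stood at 40.5, Taf4b at 64.7, Tbpl2 at 69.8, Tbpl1 at 94.98 and Sohlh2 at 98.8. Many other genes thus fell as far as Nobox, Lhx8 or Tbp, or rose as far as Tbpl2. The median log2 fold change was -0.03 over the 8 genes and -0.10 over all genes. Scaling by library totals alone moved the latter to -0.39, so changes are relative to the other genes of a library.

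Figla was measured at 32.0, 19.5 and 35.8 CPM (counts relative to the TMM-scaled total of the library) in the SN and 40.5, 47.8 and 24.9 CPM in the NSN GV oocytes. At MII it was 1.72, 0.898, 1.18 and 1.77 CPM in SN and 3.21, 1.48 and 1.69 CPM in NSN oocytes, from 7 to 27 counts. No MII oocyte came near any GV oocyte. The log2 fold change was -4.25 (SE 0.30, adjusted p = 2.36e-09 by edgeR), a 19.0-fold fall and the steepest of the 8 tested genes.

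Nobox was the most abundant of the regulators at GV, with 574, 582 and 750 CPM in SN and 824, 920 and 565 CPM in NSN oocytes. In SN-MII oocytes it was at 98.9, 102, 91.3 and 55.0 CPM, and in NSN-MII oocytes at 223, 291 and 97.4 CPM. The stages were apart, and within MII a pair of NSN oocytes stood above all SN oocytes and the last lay among them. The log2 fold change was -2.39 (SE 0.23, adjusted p = 1.35e-07), a 5.25-fold fall.

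Lhx8 varied least at GV for its level (235 ± 26.9 CPM, SD, n = 6), with 233, 244 and 261 CPM in SN and 184, 237 and 250 CPM in NSN oocytes. It stood at 65.0, 88.8, 80.3 and 59.5 CPM in SN-MII and at 66.7, 85.2 and 84.5 CPM in NSN-MII oocytes. SN and NSN oocytes interleaved at both stages, and the stages did not overlap. It fell by 1.62 on the log2 scale (SE 0.15, adjusted p = 5.35e-08), or 3.08-fold.

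Sohlh2 went the other way. It was at 12.2, 17.5 and 5.86 CPM in SN and 4.94, 10.1 and 11.8 CPM in NSN GV oocytes, and at 19.5, 45.1, 45.1 and 32.0 CPM in SN-MII oocytes. NSN-MII oocytes held 26.1, 15.9 and 103 CPM, the last above all other oocytes. The stages overlapped in the NSN-MII oocyte with 15.9 CPM and the SN-GV oocyte with 17.5 CPM. The log2 fold change was 2.01 (SE 0.41, adjusted p = 0.000389), and 1.40 (adjusted p = 0.000937) without NSN-MII oocyte 3.

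Its bHLH partner Sohlh1 had 0 counts in 10 of the 13 libraries. The counts were 2 in an SN and 9 in an NSN GV oocyte, and 1 in an SN-MII oocyte. A count of 0 allows up to 3 counts, worth 0.315 to 0.506 CPM here, so its RNA was not detectable at this depth in most oocytes. It did not pass the filter on low counts and was not tested in any comparison. The other 8 genes passed it in all comparisons.

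Of the TBP family, Tbp was the only one to fall. It was at 88.2, 91.0 and 71.4 CPM in SN and 74.8, 139 and 97.7 CPM in NSN GV oocytes, and at 63.2, 61.1, 59.9 and 92.4 CPM in SN-MII and 54.4, 47.6 and 60.9 CPM in NSN-MII oocytes. All but 1 MII oocyte lay under the GV range. The log2 fold change was -0.61 (SE 0.17, adjusted p = 0.00568).

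Tbpl1 was at 8.66, 11.2 and 7.30 CPM in SN and 11.0, 8.11 and 11.5 CPM in NSN GV oocytes. It reached 23.5, 33.6, 27.2 and 32.7 CPM in SN-MII and 32.1, 26.9 and 29.9 CPM in NSN-MII oocytes. Every MII oocyte was above every GV oocyte, and the log2 fold change was 1.61 (SE 0.20, adjusted p = 2.12e-06), a 3.06-fold rise.

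Tbpl2, the paralog that the growing oocyte needs, was at 12.6, 10.5 and 20.6 CPM in SN and 28.05, 18.8 and 12.4 CPM in NSN GV oocytes, then at 23.6, 25.9, 26.4 and 39.2 CPM in SN-MII and 26.8, 22.9 and 33.4 CPM in NSN-MII oocytes. Only the GV oocyte with 28.05 CPM reached into the MII range. The log2 fold change was 0.73 (SE 0.24, adjusted p = 0.0126), but 0.40 (adjusted p = 0.182) when libraries were scaled by their totals alone, so its call rests on the scaling.

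Taf4b was low throughout, at 4.20, 4.85 and 7.30 CPM in SN and 5.88, 4.49 and 3.54 CPM in NSN GV oocytes. SN-MII oocytes, at 5.70, 6.67, 5.12 and 2.04 CPM, stayed in or under this range, and NSN-MII oocytes, at 12.4, 11.6 and 9.11 CPM, lay above it. The stage difference was 0.55 on the log2 scale (SE 0.32, adjusted p = 0.14), and 0.67 (adjusted p = 0.0459) without SN-MII oocyte 4.

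The stages did not overlap in CPM for 4 of the 8 tested genes (Figla, Nobox, Lhx8 and Tbpl1), against 47.4% of all genes tested. Within each type the stage changes ran the same way for 7 genes. Figla changed by -4.37 (SE 0.40) on the log2 scale in SN and -4.13 (SE 0.43) in NSN oocytes, and Lhx8 by -1.746 (SE 0.20) and -1.503 (SE 0.21). Nobox changed by -2.87 (SE 0.31) in SN and -1.92 (SE 0.34) in NSN oocytes, and Taf4b by -0.16 (SE 0.44) and 1.25 (SE 0.47). The fall of Tbp was small for its SE in SN oocytes, at -0.27 (SE 0.24), against -0.94 (SE 0.26) in NSN oocytes. Tbpl2 changed by 0.98 (SE 0.33) in SN and 0.48 (SE 0.35) in NSN oocytes. For Tbpl1 the values were 1.69 (SE 0.28) and 1.54 (SE 0.29), and for Sohlh2 1.58 (SE 0.56) and 2.44 (SE 0.61).

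**Figure D2:**
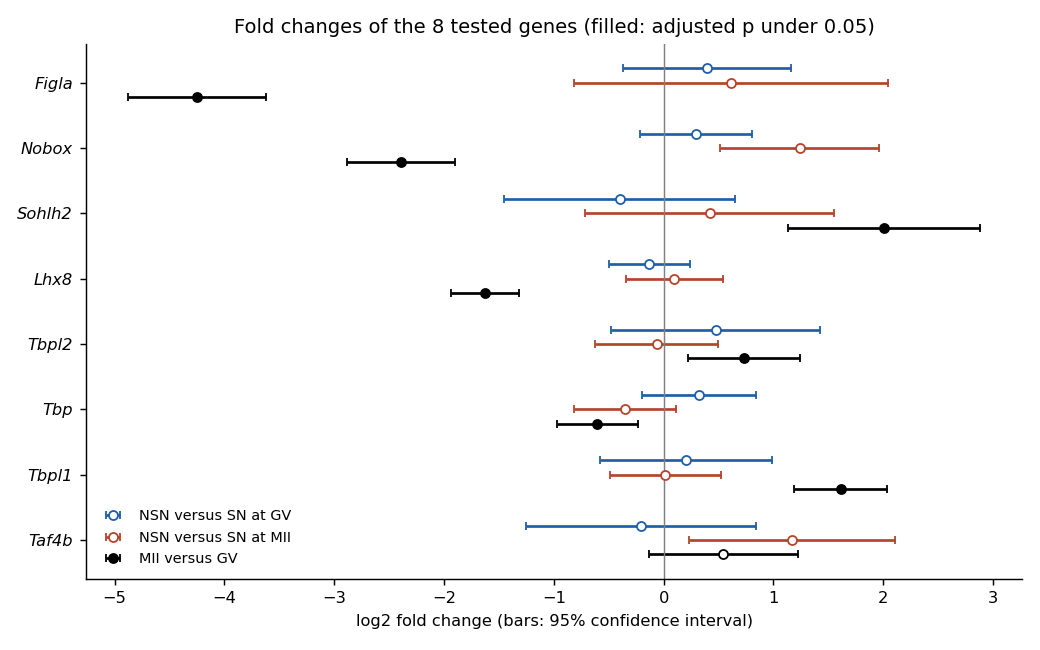
Log2 fold changes of the 8 tested genes with 95% confidence intervals, for NSN against SN oocytes at GV (blue), at MII (red) and for MII against GV (black). Filled points have an adjusted p under 0.05. All 7 filled points belong to MII against GV, and the intervals of Nobox and Taf4b for NSN against SN at MII lie above 0 without passing the adjusted threshold.

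The next question was whether NSN oocytes, which still transcribe, carry more of these regulators than SN oocytes at GV. None of the 8 tested genes was called, and neither was any other gene: 0% of 10839 genes had an adjusted p under 0.05 by edgeR, and 190 had an unadjusted p under 0.05, none of them a regulator described here. DESeq2 and limma called 0 of the 8 as well. The log2 difference, NSN minus SN, was 0.39 for Figla (95% interval -0.37 to 1.16), 0.30 for Nobox (-0.21 to 0.81) and -0.13 for Lhx8 (-0.50 to 0.24). It was -0.40 for Sohlh2 (-1.46 to 0.65), 0.47 for Tbpl2 (-0.48 to 1.42), 0.32 for Tbp (-0.19 to 0.84), 0.20 for Tbpl1 (-0.58 to 0.99) and -0.20 for Taf4b (-1.25 to 0.84).

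Of these intervals, only that of Lhx8 excluded a 1.5-fold difference in both directions. SN and NSN libraries overlapped for all 8 genes, while 6.04% of all genes did not overlap. For Figla, Nobox and Tbpl2, the same 3 oocytes, SN oocyte 3 and NSN oocytes 1 and 2, were the highest of the 6, and NSN oocyte 3 lay close to SN oocytes 1 and 2. These oocytes were singled out after their values were seen.

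At MII the question was whether oocytes matured from NSN and SN oocytes differ in these RNAs. The paper reports that fewer NSN than SN oocytes matured, and only those that did could be sampled at MII. Such selection and a change during maturation cannot be told apart here. The same holds for the stage changes within each type and for the interaction. None of the 8 genes was called, where 26 of 10028 genes (0.259%) were (233 without NSN-MII oocyte 3), and 941 genes had an unadjusted p under 0.05. Nobox and Taf4b were among the latter. Nobox was higher in NSN-MII oocytes by 1.24 on the log2 scale (SE 0.33, 95% interval 0.52 to 1.96, adjusted p = 0.18 by edgeR over all genes). NSN-MII oocyte 3, at 97.4 CPM, lay inside the SN-MII range, and without it the difference was 1.57 (adjusted p = 0.00589 by edgeR). That oocyte was singled out after its value was seen. With each library left out in turn, the difference ran from 0.88 to 1.57 and the adjusted p from 0.00589 to 0.544. DESeq2 gave an adjusted p of 0.0163 on the same libraries and called no other of the 8.

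Taf4b was higher in NSN-MII oocytes by 1.17 on the log2 scale (SE 0.43, 95% interval 0.23 to 2.11, adjusted p = 0.38 by edgeR). It was the only one of the 8 genes whose NSN-MII and SN-MII oocytes did not overlap, against 10.2% of all genes tested. Sohlh2 differed by 0.42 (SE 0.52, adjusted p = 0.885), a value set by NSN-MII oocyte 3: without it the difference was -0.74 (adjusted p = 0.301). Figla differed by 0.61 (SE 0.66), Lhx8 by 0.10 (SE 0.20), Tbp by -0.35 (SE 0.21), Tbpl2 by -0.06 (SE 0.26) and Tbpl1 by 0.02 (SE 0.23).

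Whether the difference between NSN and SN oocytes itself changed from GV to MII was asked with the interaction of stage and oocyte type. Of all genes 0.0176% were called and none of the 8, nor did DESeq2 or limma call any of them. The largest values were 1.40 on the log2 scale for Taf4b (SE 0.64, adjusted p = 0.918 by edgeR) and 0.95 for Nobox (SE 0.45, adjusted p = 0.927), both with an unadjusted p under 0.05.

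Paralogs were also compared within each oocyte, where the scaling of the library drops out. Tbp was the most abundant of its family per length in 13 of 13 oocytes. At GV it exceeded Tbpl2 by 2.26 to 6.31 times in FPKM and Tbpl1 by 5.05 to 12.3 times. At MII these ratios had come down to 1.459 to 1.997 and 1.24 to 2.99.

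**Figure D3:**
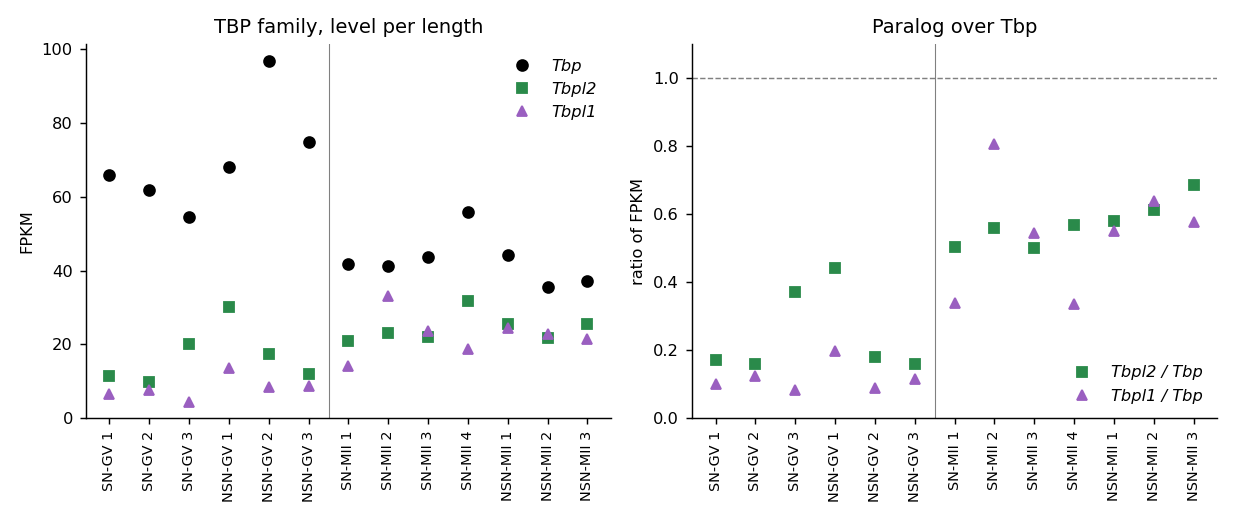
FPKM of Tbp, Tbpl2 and Tbpl1 in each oocyte (left, linear axis from 0) and the FPKM of each paralog divided by that of Tbp (right; the dashed line marks equal levels). Tbp is the highest in all 13 oocytes, and the Tbpl2 and Tbpl1 ratios lie between 0.0816 and 0.443 at GV and between 0.334 and 0.807 at MII.

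The log2 ratio of counts of Tbpl1 to Tbp rose by 2.18 from -3.26 ± 0.460 (SD, n = 6) at GV to -1.07 ± 0.295 (SD, n = 7) at MII, with no overlap (exact permutation test, two-sided, p = 0.000583, the smallest the design allows, adjusted p = 0.00524 over 9 tests). That of Tbpl2 to Tbp rose by 1.35 from -2.49 ± 0.708 to -1.14 ± 0.180 (exact permutation p = 0.00117, adjusted p = 0.00524), and only NSN-GV oocyte 1, at -1.41, reached the MII range. That of Taf4b to Taf4 fell by 1.38 from -1.74 ± 0.748 to -3.12 ± 0.925 (exact permutation p = 0.00466, adjusted p = 0.014). Taf4 itself rose by 1.78 on the log2 scale. From FPKM the fall in the Taf4b ratio was 1.14 with an adjusted p of 0.0761.

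Between NSN-MII and SN-MII oocytes the Tbpl2 to Tbp ratio did not overlap. It was -1.02, -1.06 and -0.865 in NSN and -1.42, -1.23, -1.18 and -1.23 in SN oocytes, a difference of 0.29 (exact permutation p = 0.0286, the smallest that 3 against 4 oocytes allow, adjusted p = 0.0643). The Taf4b to Taf4 ratio was 1.07 higher in NSN-MII oocytes (exact permutation p = 0.0571, adjusted p = 0.103). Its groups were barely apart, at -2.761 in NSN-MII oocyte 3 and -2.764 in SN-MII oocyte 2, and SN-MII oocyte 4 lay far lower, at -5.04. As ratios of FPKM they overlapped (0.112 in NSN-MII oocyte 3 and 0.122 in SN-MII oocyte 2). The Tbpl1 to Tbp ratio was 0.36 higher with overlap (exact permutation test, adjusted p = 0.171). At GV the differences were 0.14, -0.04 and -0.10, in the order Tbpl2, Taf4b and Tbpl1 (adjusted p = 0.9 each), where 3 against 3 oocytes cannot give an exact p under 0.1.

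The other genes of these pathways were read from 6 lists. Their counts stand beside 36.9% of all genes called lower and 31.7% called higher at MII. In no list was a gene called between NSN and SN oocytes at either stage or in the interaction. Of 8 partners of the bHLH and LIM factors, 5 rose and 2 fell at MII (median log2 fold change 0.86), and with libraries scaled by their totals alone 3 rose, Tcf3 and Tcf4 being no longer called. Ldb2 rose from 9.13 ± 3.55 to 36.7 ± 11.6 CPM (SD, n = 6 and 7) while Ldb1 fell from 11.7 ± 2.44 to 2.91 ± 0.874 CPM: these encode the cofactors that bind LIM domains. Ssbp3 (1.83 on the log2 scale) and Ssbp2 (1.22), which steady such cofactors, rose. Ssbp4, the other gene of this list that fell, went from 1.04 ± 0.496 to 0.207 ± 0.347 CPM. Its MII mean lay under the level of 3 counts. Of 4 other regulators of the oocyte's growth set, Dynll1 fell by 4.10 on the log2 scale, and Stat3 (1.23) and Foxo3 (1.09), the factor that keeps primordial follicles at rest, rose.

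Of 11 genes known to be lower in ovaries that lack Figla or Nobox, 6 fell and 3 rose (median -0.33). Zp2 fell from 2947 ± 409 to 301 ± 144 CPM and Zp3 from 3558 ± 562 to 251 ± 94.0 CPM. Both encode proteins of the zona pellucida. Fgf8, a growth factor that acts on cumulus cells, fell by 4.78 on the log2 scale, more than Figla. H1foo, the oocyte linker histone, rose by 1.22.

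Of 15 other TFIID subunits 14 were tested, of which 11 rose and 1, Taf12, fell (median 0.79). Taf4 rose from 17.1 ± 4.596 to 58.4 ± 8.92 CPM and Taf3 from 287 ± 62.4 to 881 ± 179.9 CPM, and Taf2 (1.74 on the log2 scale) and Taf6 (1.47) rose too. Taf7l did not pass the filter on low counts. With libraries scaled by their totals alone, 9 of the 14 rose and Taf5 and Taf9 were no longer called.

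Of 18 subunits of TFIIA, TFIIB, TFIIE, TFIIF and TFIIH, 10 fell and 5 rose (median -0.89). Ercc3, a helicase of TFIIH, fell from 63.1 ± 8.33 to 4.74 ± 2.14 CPM, and Ccnh, its cyclin, from 49.9 ± 13.1 to 3.91 ± 1.82 CPM. Gtf2f1 (-2.18 on the log2 scale) and Gtf2h5 (-2.02) fell as well. TFIIA, the partner of TBPL2, went the other way: Gtf2a1 (2.02) and Gtf2a2 (1.37) rose, and Gtf2a1l (0.00) was not called. Gtf2e1 (1.42), Gtf2h1 (1.31) and Gtf2h3 (1.54) were the other 3 that rose. Of 10 other TBP partners, 8 fell and 1 rose (median -0.92). Taf1c (-4.78) and Taf1b (-2.27), of the polymerase I factor that contains TBP, Brf1 (-3.58), of the polymerase III factor, and Drap1 (-3.29), of the repressor NC2, had the largest fitted falls. At MII the means of Taf1c and Brf1, 0.265 and 0.440 CPM with libraries at 0, lay at or near the level of 3 counts, so the size of their falls is uncertain.

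**Figure D4:**
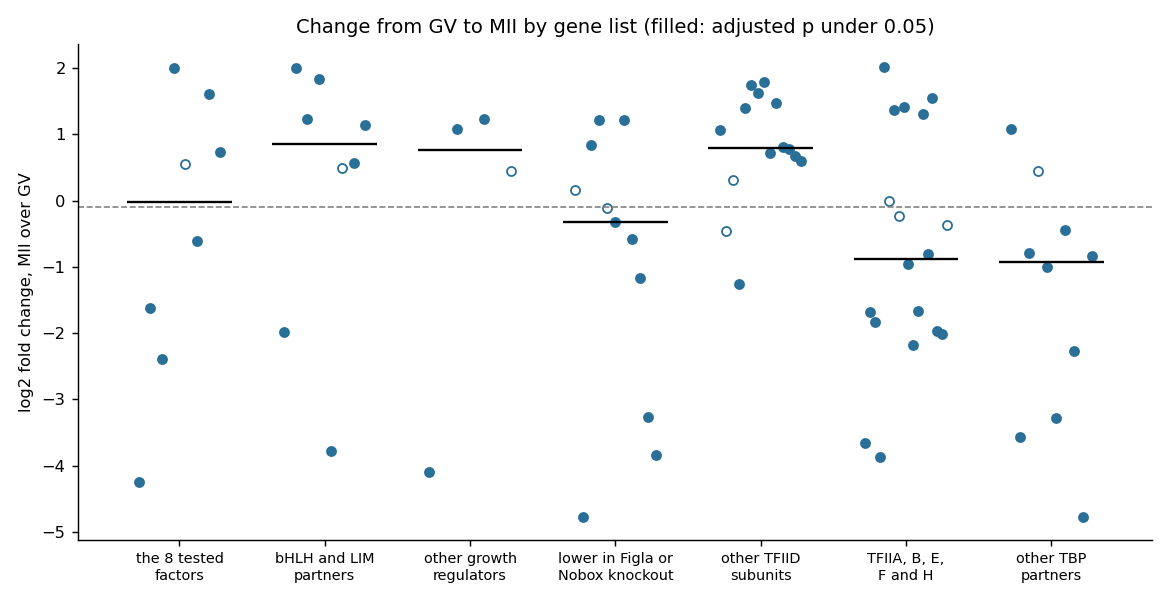
Log2 fold changes from GV to MII for the 8 tested regulators and the 6 lists. Each point is a gene, filled where the adjusted p is under 0.05, black lines are list medians and the dashed line is the median of all 11375 genes (-0.10). The medians run from 0.86 for the bHLH and LIM partners and 0.79 for the other TFIID subunits to -0.92 for the other TBP partners.

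Because tails lengthen on stored RNAs that carry a cytoplasmic polyadenylation element (CPE), the last 100 bases of the genes' transcripts were read for TTTTAT or TTTTAAT on the transcript's own strand. The stretches below are from GENCODE and end at the polyadenylation signal. They show 2 genes that fell and 2 that rose, picked after their values were seen. Capitals mark the signal and, where present, the CPE.

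Figla: tgagtatttttcatgtaaaatataATTAAA
Lhx8: tacaaagcctaccatcctaagttcATTAAA
Sohlh2: accctgcaatccattgttttgtttAATAAA
Tbpl1: aagtactgtaaaattTTTTATataAATAAA

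Tbpl1 held 1 CPE, inside the stretch shown, and Sohlh2 held 2, both outside it. The last CPE of Sohlh2 lay after the polyadenylation signal: it ended 5 bases before the transcript end, the signal 21 bases before it. Taf4, which rose, held 2. The window of Figla, Nobox, Lhx8, Tbp, Tbpl2, Taf4b and Sohlh1 held 0. Over all genes tested 19.5% held a CPE in this window, with 29.4% of the genes called higher and 10.6% of those called lower at MII. The annotated ends of Nobox, Tbpl2 and Taf4b held no AATAAA or ATTAAA within the last 40 bases, so 0 there says little about the end the oocyte uses. Each gene was read at 1 transcript only. Whether the CPE bears on these changes was not tested.

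Finally, the genes nearest to each regulator were found by the root mean square (RMS) difference of log2 CPM over the 13 libraries, each gene centred on its mean, among the 11375 genes tested. Nearest to Figla were Pdcd5 and Dydc2 (RMS 0.380 and 0.381, where the median gene lay at 2.14). Nearest to Nobox were Rfc4 and Ctsb (0.293 and 0.311, median 1.503), and to Lhx8 Med8 and Gdi2 (0.175 and 0.177, median 1.14). Nearest to Sohlh2 was Hoxa7 (0.515, median 1.40), then Ldb2 (0.518).

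Tbpl1 had the closest neighbours of the 8, Cpsf2 and Ddi2 (0.150 and 0.151, median 1.11). Tbp lay nearest to Tmed10 and Sdf2 (0.174 and 0.203, median 0.962), Tbpl2 to Fundc1 and Gpat4 (0.256 and 0.258, median 0.929), and Taf4b to Ankrd46 and Kcnip1 (0.347 and 0.357, median 0.997). The points share libraries. Genes picked as nearest lie under the median by that choice, and no test was made of these distances.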

How the data were processed

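RNA-seq libraries of 13 single mouse oocytes were used, grouped by their deposited labels, 1 library per replicate. The authors trimmed reads with Trim Galore 0.4.4, mapped them to mm10 with Bowtie2 2.3.5 and quantified genes with RSEM 1.2.28 (processing notes and methods). The authors deposited RSEM's expected count of each gene in a separate table for GV and for MII, and reads that fit several genes are shared out in it. FPKM values were deposited by the authors as counts per gene length and library size. Total counts were 7140416 to 8846287, and counting intervals and floors cover counting error only.

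Counts were rounded to whole numbers, filtered with filterByExpr, scaled by TMM and tested with edgeR 4.0.16 (R 4.3.3), quasi-likelihood, adjusted by Benjamini-Hochberg over all genes, with calls at an adjusted p under 0.05. NSN and SN oocytes were compared within a stage, stages and the interaction in 1 model of all libraries. CPM are counts over the TMM-scaled library total. Paralog ratios were log2 ratios of counts, 0.5 added, with exact permutation tests (9 tests adjusted together). DESeq2 1.42.0, limma 3.58.1 on log2(FPKM + 1), other scalings, no filter, a replicate block and leaving out each library were alternatives, and the scripts were tested on simulated data.

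Transcripts were the longest principal ones of GENCODE. The genes and lists were chosen with earlier results of these data known. Beside the 9 genes, named were, from each list, up to 4 genes with the largest change among those called between stages whose stages did not overlap, and the 2 nearest genes of each regulator. Taf12, Tcf3, Tcf4, Ssbp4, Taf5, Taf9, Taf7l, Gtf2a1, Gtf2a2, Gtf2a1l, Gtf2e1, Gtf2h1, Gtf2h3 and the marker genes were named after their values were seen.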

Additional observations from a re-analysis of the deposited data

Results flagged for a closer look

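Tbp in the SN-MII oocytes stood out among the 8 tested genes, each examined for an oocyte far from the other 3 of that group. SN-MII oocyte 4 held 92.4 CPM against 59.9 to 63.2 CPM in the others, a gap of 0.897 of the whole range where 0.829 is Dixon's 95% critical value for 4 values. Chance alone gives such a gap in about 1 of 20 groups. The same oocyte had the highest Tbpl2 value of all oocytes (39.2 CPM) and the lowest Nobox, Lhx8 and Taf4b values of all oocytes (55.0, 59.5 and 2.04 CPM).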

How the results depend on the processing

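From GV to MII, the calls of Figla, Nobox, Sohlh2, Lhx8, Tbp and Tbpl1 held in all 21 alternatives each, and that of Tbpl2 in 20 of 21, the exception being library totals alone. No regulator was called between NSN and SN oocytes at GV under any alternative. Both the spread between oocytes and, for low genes such as Figla at MII and Sohlh1, the counts limit the precision. The common biological coefficient of variation was 0.352 at GV and 0.344 at MII.

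For NSN against SN at MII, 1 regulator, Nobox, was called by DESeq2 (218 genes in all) and without a filter on low counts (89 genes). The count of genes was 9 by limma on log2(FPKM + 1), 6 with 0.1 added, 3 without its filter, 16 with library totals alone (an alternative chosen after seeing the data) and 69 in 1 fit of 13 libraries. At an unadjusted p under 0.05 with a 1.5-fold change, 2 regulators and 719 genes passed at MII, 167 genes at GV, and 2 regulators and 600 genes in the interaction. The interaction gave 46 genes by DESeq2, 6 without a filter and 1 by unfiltered limma. With each library left out in turn, 2 to 233 genes and 0 to 1 regulators were called at MII, the upper values without NSN-MII oocyte 3, and 0 to 12 genes in the interaction.

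Signs turned only where nothing was called. Lhx8 at GV came to 0.0281 by limma (0.0282 with 0.1 added, 0.0281 unfiltered), and Tbpl2 at MII to 0.00949 (0.0103 and 0.00949). With a library left out, Taf4b at GV ran from -0.482 to 0.093, and at MII Sohlh2 ran from -0.744 to 0.831, Tbpl2 from -0.202 to 0.118 and Tbpl1 from -0.075 to 0.0965. The interaction ran from -0.222 to 0.468 for Figla and from -0.356 to 1.28 for Sohlh2. Log2 ratios at GV ran from -0.362 to 0.529 (Tbpl2 to Tbp), from -0.377 to 0.293 (Tbpl1 to Tbp) and from -0.491 to 0.44 (Taf4b to Taf4), and from FPKM those of Tbpl1 and Taf4b came to 0.332 and 0.423. From FPKM the fall of the Taf4b ratio to MII, -1.14, missed the threshold. The causes were not tested.

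Same-numbered oocytes did not deviate together (correlations -0.447 to -0.173 at GV and -0.126 to 0.0947 at MII). Deviations from the means of such small groups cancel within each group, so this cannot decide whether the numbers pair the oocytes. With a replicate block, 2 genes and no regulator were called at MII, Tbpl2 there came to 0.108, and no regulator changed its call.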
